A study of Mus musculus with 4 samples.

Results

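The cells described here were macrophage-like cells of mouse subcutaneous fat that carried complement C1q transcripts but lacked most of the transcripts that mark tissue-resident macrophages. They were picked cell by cell from droplet single-cell RNA counts, in which each unique molecular identifier (UMI) stands for 1 captured RNA molecule. Barcodes were kept from 300 detected genes and 500 UMIs upward, if mitochondrial genes took no more than 10% of the UMIs. It was a member when C1qa, C1qb and C1qc together had at least 3 UMIs, the B cell gene Cd79a and the T cell gene Cd3e had 0, and at most 1 of the 6 resident genes Lyve1, Cd209f, Cd209d, Cd163, Folr2 and Ccl8 was detected. This rule found 71 of 14931 kept cells, 24 of them from iAdFASNKO mice and 47 from control mice, all in the Lin+ fraction. C1q cells with 2 or more of the 6 resident genes, called resident cells below, numbered 132, of which 43 came from iAdFASNKO mice and 89 from control mice.

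The stromal vascular fraction, which is the tissue without its mature fat cells, was prepared from inguinal white fat pads by digestion and red cell lysis. Cells of 8 iAdFASNKO mice were pooled, as were cells of 7 control C57BL/6 mice, and magnetic beads then separated an immune (Lin+) from a non-immune (Lin-) fraction of either pool. iAdFASNKO is the name of an inducible, adipocyte-specific knockout of Fasn, the enzyme that builds fatty acids, and the deletion lies in fat cells, which were not sampled here. Fasn had 2 UMIs in iAdFASNKO and 0 in control members, 2 and 7 in resident cells, which does not check the labels. The sources used here give neither the inducer nor the age of the mice, nor whether control mice carried a floxed allele or received the inducer. A genotype was 1 pooled library per fraction, so there is no replicate and no test between the genotypes, and every interval below is a 95% interval of counting error alone. The genotype of each count matrix is given by its file name alone, as KO or WT; a swapped name would turn every direction below.

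Macrophages of white fat come from more than a single source. Resident macrophages, often found along vessels and marked by Lyve1, Folr2, Cd163 and the Cd209 lectins, maintain themselves locally, whereas others arise from blood monocytes that enter through the chemokine receptor Ccr2, carry the surface protein Ly6C and lose it as they mature. C1q, a soluble pattern receptor that starts the classical complement cascade, is made by mature macrophages of both kinds. Type I interferon drives a shared set of antiviral genes in such cells through a response element near their start sites, while interleukin 4 and interleukin 13 drive alternative activation through STAT6, with Retnla and Mgl2 among its well known targets in mice. Macrophages that take up lipid store it in droplets coated by Plin2 and raise lysosomal and lipid-binding genes.

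The C1q threshold and the resident genes are values the rule used, and they are given as a description. Member cells had a median of 7.5 C1q UMIs in the iAdFASNKO library, with a range of 3 to 32, and a median of 12 with a range of 3 to 107 in the control library. Resident cells had medians of 39 and 49 C1q UMIs. Just inside the threshold, 4 iAdFASNKO and 9 control members had exactly 3 C1q UMIs; just outside it, 1 and 10 cells that met the rest of the rule had 2. Among the C1q cells, 17 iAdFASNKO cells had none of the 6 resident genes, 7 had 1 and 8 had 2, against 27, 20 and 22 control cells. No gap separated members from resident cells, since cells with each number of resident genes occurred in both libraries. Median UMIs per cell in the iAdFASNKO library were 3962 in members with 0 resident genes and 1519 in those with 1, against 4470 in cells with 2; in the control library these medians were 3267, 3278 and 5370. A resident gene can be missed in a shallow cell, and the part of depth in membership was not tested here.

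**Figure D1:**
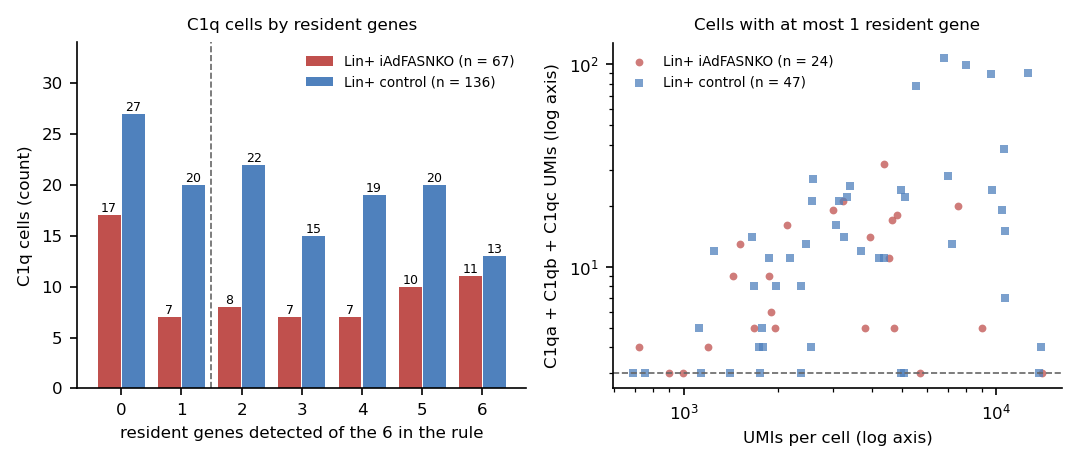
Left, number of C1q cells (y axis) by the number of the 6 resident genes detected (x axis) in the Lin+ iAdFASNKO and Lin+ control libraries, with the dashed line at the limit of the rule; right, C1q UMIs (y axis, log scale) against UMIs per cell (x axis, log scale), 1 point per cell, with the dashed line at 3 C1q UMIs. The counts run on without a gap across the limit, with 7 and 8 iAdFASNKO cells and 20 and 22 control cells on either side of it.

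As a check of the label, 12 of 24 iAdFASNKO members and 34 of 47 control members had at least 3 of 8 core macrophage markers. Lyz2, the lysozyme of myeloid cells, had a UMI in 23 of 24 iAdFASNKO and 45 of 47 control members. Csf1r, the receptor for the macrophage growth factor CSF1, had one in 13 and 26 cells, Cd68 in 12 and 26, and Adgre1, the F4/80 antigen, in 9 and 20. Of the 4 genes proposed to mark these cells, C1qa is part of the rule and the other three are not. Fcgr1, the high-affinity IgG receptor CD64, had a UMI in 4 of 24 iAdFASNKO members (16.7%, 4.74 to 37.4%) and 24 of 47 control members (51.1%, 36.1 to 65.9%). Rsad2, an interferon-induced antiviral enzyme, was found in 1 and 17 cells, and Plin2 in 16 and 34. In resident cells Fcgr1 had a UMI in 30.2% of iAdFASNKO and 50.6% of control cells, and Rsad2 in 14% and 24.7%. Resident cells held more UMIs per cell. With all cells thinned to the same depth, Fcgr1 was in 10.5% of iAdFASNKO and 31.7% of control members, against 12.2% and 18.8% of resident cells. Rsad2 was then in 5.26% and 22% of members, against 7.32% and 5.88% of resident cells. At least 3 of the 4 proposed markers were detected in 4 iAdFASNKO and 24 control members. By core markers the label of macrophages without the resident set thus holds for most control members and for 12 of the 24 iAdFASNKO members. The set with Fcgr1 and Rsad2 describes a portion of the control members, and both genes also occurred in resident cells.

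Depth per cell was alike at the median and lower than in the resident cells. Members had a median of 3120 UMIs and 1038 genes per cell in the iAdFASNKO library, against 3267 UMIs and 1396 genes in the control library; resident cells had medians of 5393 and 5697 UMIs. All UMIs of the members summed to 89731 and 223093. The share of mitochondrial UMIs stood higher in the iAdFASNKO members, with a median of 7.57% against 4.39% in the control members, while resident cells had 4.75% and 5.45%. Ribosomal protein genes took 8.89% and 12.1% of the members' UMIs, and haemoglobin genes 0.371% and 0.283%. The part of these differences in the results below was not tested. The libraries held 6133 and 3686 Lin+ barcodes with 25865546 and 21622291 UMIs in all. Between pairs of the 4 libraries 109 to 170 barcode sequences were shared, but 0 of them belonged to members, and the doublet caller Scrublet marked 0 iAdFASNKO and 1 control member.

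Transcripts of other cell classes were present in many members, while the UMIs of progenitor and neutrophil markers were concentrated in few cells. At least 2 fat progenitor markers were detected in 15 of 24 iAdFASNKO and 37 of 47 control members. A B cell marker was detected in 12 iAdFASNKO and 27 control members. Fat progenitor markers summed to 552 UMIs in the iAdFASNKO members, 88.0% of them in 1 cell, and to 3814 UMIs in the control members, 71.7% of them in 1 cell. Neutrophil markers summed to 163 and 546 UMIs, with 96.9% and 34.2% in the top cell. Haemoglobin transcripts, 333 and 634 UMIs, were found in all 24 and all 47 members. Markers of B cells gave 16 and 75 UMIs, of T cells 8 and 4, of natural killer cells 1 and 3, of mast cells 1 and 6, and of endothelial cells 4 and 5. Markers of type 1 dendritic cells gave 29 UMIs in iAdFASNKO and 57 in control members, and those of type 2 gave 24 and 62. A type 1 marker was found in 14 iAdFASNKO and 26 control members, and a type 2 marker in 9 and 26. Migratory dendritic cell markers gave 0 and 72 UMIs, with 79.2% of the latter in 1 cell. Of single dendritic cell genes, Xcr1, Flt3 and Ccr7 had 0 UMIs in both libraries. The dendritic cell lectin Cd209a had 0 UMIs in iAdFASNKO and 14 in control members. Cells with at least 10 UMIs of Col1a1, Col1a2, Col3a1 and Dcn together or at least 5 of S100a8 and S100a9 were 2 of 24 and 13 of 47, and the main results are also given without them.

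Members made up a smaller share of the iAdFASNKO Lin+ library. They were 24 of 4494 kept iAdFASNKO cells (0.534%, exact binomial interval 0.342 to 0.794%) and 47 of 2922 kept control cells (1.61%, 1.18 to 2.13%), a ratio of 0.332 (0.204 to 0.542). C1q cells as a whole were also fewer, with 67 in the iAdFASNKO and 136 in the control library, and members were a like part of them, 35.8% (24.5 to 48.5%) against 34.6% (26.6 to 43.2%), a ratio of 1.04 (0.698 to 1.54). When every cell with a B or T cell marker was taken out, members included, the shares were 12 of 390 (3.08%) and 20 of 389 (5.14%). Their ratio was 0.598 (0.297 to 1.21), an interval that includes 1. Since 1 UMI of any of these markers sufficed, most kept cells of both libraries were taken out. The cells counted as B cells by several markers were only 1429 and 361. With a stricter filter of 500 genes, 1000 UMIs and no more than 5% mitochondrial UMIs, 2 iAdFASNKO and 28 control members were left. The ratio of shares was then 0.063 (0.015 to 0.264). With a looser filter of 200 genes and no more than 20% mitochondrial UMIs, there were 47 iAdFASNKO and 58 control members. The ratio was then 0.487 (0.333 to 0.714), so the number of iAdFASNKO members depended strongly on the filter. A share of kept cells also depends on how many cells of other classes were kept, and the part of the bead separation was not tested. With 1 library each, the variation of these shares between pools is unknown. In the Lin- fraction 0 of 4412 iAdFASNKO and 0 of 3103 control cells were members. The exact binomial intervals of these shares reach up to 0.0836% and 0.119%.

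Expression was compared on UMIs summed over all member cells of a library and given as CPM, the counts per 1000000 UMIs of those cells. A gene was measured when it had at least 20 UMIs in both libraries together, and called higher or lower when its iAdFASNKO over control ratio passed 1.5-fold with an exact interval that excluded 1. Of 2477 measured genes 131 (5.29%) were higher and 375 (15.1%) lower in iAdFASNKO members, with a median log2 ratio of -0.24 over all measured genes. That median is itself below 0, and with the ratios centred on it 232 genes were higher and 221 lower, so that 51.2% of the calls were higher against 25.9% without centring. Each list below is therefore read against the median of -0.24. Because the libraries are pools, a call says that these 2 sets of cells differ by more than counting error, and fewer cells of one state cannot be told apart from less RNA per cell except where values per cell are given.

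**Figure D2:**
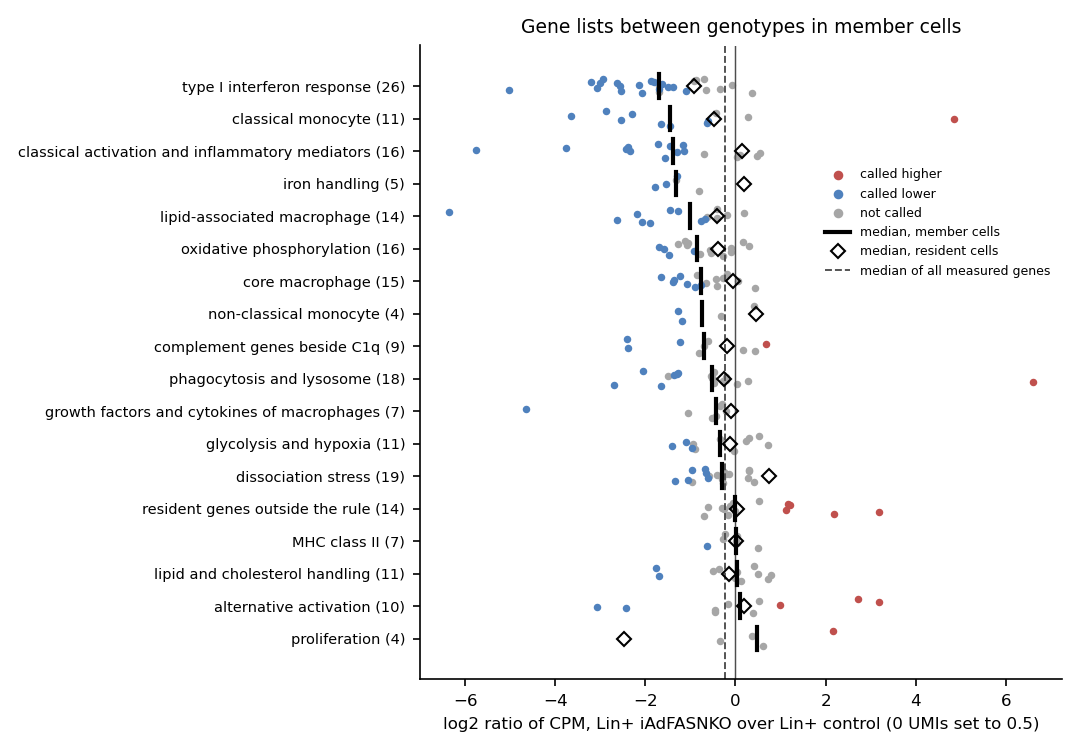
Log2 ratio of CPM, iAdFASNKO over control members (x axis), for each measured gene of each list (rows); red points were called higher, blue points lower and grey points neither, the bar is the members' median, the diamond the resident cells' median, and the dashed line the median of all measured genes (a gene with 0 UMIs in a library was set to 0.5). The interferon, classical monocyte, inflammatory and iron lists have medians of -1.69, -1.45, -1.38 and -1.32, while MHC class II lies at 0.02.

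Genes of classical monocytes were lower in iAdFASNKO members. Of 11 measured genes of the list, 8 were lower and 1 higher, with a median log2 ratio of -1.45; in resident cells 5 of 14 were lower and 4 higher, with a median of -0.48. Ly6c2, which encodes the monocyte surface protein Ly6C (mm10 chr15:75108158-75111970, minus strand), had 9 UMIs or 100 CPM in iAdFASNKO members and 165 UMIs or 740 CPM in control members, a ratio of 0.136 (0.0609 to 0.264). All 9 iAdFASNKO UMIs were in 1 of 24 cells, whereas 23 of 47 control cells had at least 1, the highest with 50 and the next with 12. Reads of Ly6c2 and its near copy Ly6c1, which had 23 and 46 UMIs, cannot be separated with certainty at their 3′ ends.

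The share of cells with Ly6c2 was above that of B cells in control members. In iAdFASNKO members its interval included the B cell share. B cells of the same libraries, which should lack Ly6c2, were used to gauge free RNA and were counted only without C1q UMIs. Of them 3.43% of iAdFASNKO and 3.88% of control cells had a Ly6c2 UMI, at median depths of 2544 and 2333 UMIs. In members the shares were 4.17% (0.105 to 21.1%) and 48.9% (34.1 to 63.9%). The 1 iAdFASNKO member with Ly6c2 held 9 UMIs of it and 9 of Ccr2. With every cell thinned to 1500 UMIs, which left 19 of 24 and 41 of 47 cells, 1 iAdFASNKO and 20 control members had Ly6c2.

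Plac8, another gene of blood monocytes, had 6 UMIs in iAdFASNKO and 73 in control members, a ratio of 0.204 (0.0726 to 0.467), in 3 and 20 cells. Ifitm3, an interferon-induced membrane protein that monocytes also express, had 691 and 2174 CPM, a ratio of 0.318. Ms4a4c, S100a4 and S100a6 had ratios of 0.172, 0.661 and 0.647, and the remaining calls of the list were lower for Vcan and Thbs1, where 25 of 31 and 63 of 88 control UMIs lay in 1 cell. Ccr2, the receptor that brings monocytes into tissue (mm10 chr9:124101950-124113557, plus strand), was not called: it had 62 UMIs or 691 CPM in iAdFASNKO members and 207 UMIs or 928 CPM in control members, a ratio of 0.745 (0.551 to 0.993), in 10 of 24 and 35 of 47 cells. Fn1, the fibronectin gene, was not called either and had 958 CPM in iAdFASNKO and 793 CPM in control members, a ratio of 1.21 (0.923 to 1.57). Ly6c2 and Plac8 were thus far lower in iAdFASNKO members while Ccr2 differed by less than the fold used here.

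Interferon-response genes formed the list with the most lower calls and also the most measured genes. Of 26 measured genes 17 were lower and 0 higher in iAdFASNKO members, with a median log2 ratio of -1.69. The shorter classical monocyte and inflammatory lists had 8 of 11 and 11 of 16 genes lower. Rsad2 (mm10 chr12:26442746-26456452, minus strand) had 4 UMIs or 44.6 CPM in iAdFASNKO and 77 UMIs or 345 CPM in control members, a ratio of 0.129 (0.0343 to 0.344). The 4 iAdFASNKO UMIs were in 1 cell; 17 control cells had the gene, with 43 UMIs in the top cell and 6 in the next. Rsad2 was proposed as a marker of these cells with such values known, so its level is a description.

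Irf7, the transcription factor that amplifies interferon production (mm10 chr7:141262706-141266481, minus strand), had 111 CPM in iAdFASNKO and 690 CPM in control members, a ratio of 0.161 (0.0759 to 0.305). It was found in 5 and 26 cells, with at most 4 and 19 UMIs in a cell, so the ranges overlapped at the low end. Isg15, a ubiquitin-like protein that is attached to other proteins, had 100 and 368 CPM, a ratio of 0.273 (0.121 to 0.544), in 5 and 20 cells. Slfn4, a myeloid gene of the Schlafen family, had 1 UMI in iAdFASNKO and 81 in control members, 11.1 and 363 CPM, with a ratio of 0.0307 (0.000768 to 0.176), in 1 and 22 cells. Ifi204, a sensor of DNA, had 212 and 659 CPM and a ratio of 0.321, in 11 and 36 cells.

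Other lower genes were Oasl1, Oasl2, Oas1a, Ifi47, Bst2, Stat2, Zbp1, Rtp4, Slfn5, Phf11d and Ddx58. Cxcl10, a chemokine induced by interferon, was not called, with 15 UMIs in iAdFASNKO and 29 in control members and a ratio of 1.29 (0.641 to 2.48), and neither were Ifi205, Trim30a, Ifit1 and Ifit3, with ratios of 0.953, 0.633, 0.622 and 0.533. Irf7 had a UMI in 8.54% of iAdFASNKO and 6.09% of control B cells, against 20.8% and 55.3% of members. Rsad2 was found in 2.52% and 1.39% of B cells, against 4.17% and 36.2% of members. Whether the B cell UMIs of these genes were free RNA or the B cells' own was not tested. The iAdFASNKO share of Rsad2 was 1 cell, a share near that of B cells; that cell held 22 of the list's genes and no Ly6c2. In thinned cells Irf7 remained in 3 of 19 iAdFASNKO and 18 of 41 control members, and Rsad2 in 1 and 9.

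The start regions of 3 of these genes are shown because they carry, or lack, the element through which interferon acts. Each is the 250 bases before the RefSeq start (table of build GRCm38.p6), on the gene's strand, 5′ to 3′. Capitals mark matches to GAAANNGAAA, a form of the interferon-stimulated response element, searched on both strands.
Rsad2, chr12:26456453-26456702, minus strand: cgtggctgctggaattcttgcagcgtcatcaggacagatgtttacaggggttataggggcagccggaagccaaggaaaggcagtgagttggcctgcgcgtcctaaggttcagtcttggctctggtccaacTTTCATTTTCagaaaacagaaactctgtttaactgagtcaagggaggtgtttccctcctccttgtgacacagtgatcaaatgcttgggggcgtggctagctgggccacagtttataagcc
Isg15, chr4:156200819-156201068, minus strand: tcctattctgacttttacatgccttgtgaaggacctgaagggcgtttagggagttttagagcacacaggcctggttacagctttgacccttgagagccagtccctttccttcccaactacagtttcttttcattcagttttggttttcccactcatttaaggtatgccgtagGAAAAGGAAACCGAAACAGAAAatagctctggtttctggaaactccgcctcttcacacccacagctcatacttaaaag
Slfn4, chr11:83174936-83175185, plus strand: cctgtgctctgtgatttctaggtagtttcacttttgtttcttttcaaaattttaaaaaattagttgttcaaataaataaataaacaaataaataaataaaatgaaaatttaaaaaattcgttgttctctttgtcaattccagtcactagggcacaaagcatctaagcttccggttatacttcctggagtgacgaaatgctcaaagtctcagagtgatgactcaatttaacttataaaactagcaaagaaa
Rsad2 held 1 match, on the opposite strand, beginning 120 bases before the start. Isg15 held 3 overlapping matches, beginning 78, 72 and 66 bases before the start, and Slfn4 held 0 in this window, although its ratio was lower than those of Rsad2 and Isg15. The letters were found in 11 of 24 interferon-list genes with a RefSeq promoter (45.8%), against 936 of all 27025 genes with one (3.46%). They occurred in 6 of the 13 genes called lower that had a promoter, Bst2, Isg15, Oas1a, Rsad2, Slfn5 and Stat2, and in 5 of the 8 that were measured and not called, Cxcl10, Ifi205, Ifit1, Ifit3 and Trim30a. They were in 0 of 15 genes of the inflammatory list and 0 of 13 of the alternative activation list. A match is a description of letters and not a bound site.

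The interferon and monocyte transcripts occurred in many of the same control cells. These subsets were chosen after the values were seen. Of the 23 control members with Ly6c2, 21 had Ccr2, 17 Plac8, 17 Slfn4, 15 Fcgr1, 14 Rsad2, 19 Irf7 and 19 Plin2. Of the 18 control members with neither Ly6c2 nor at least 10 Retnla UMIs, 12 had Ccr2, 5 Slfn4, 9 Fcgr1, 3 Rsad2 and 7 Irf7. Ly6c2 was found in 14 of the 17 control cells with Rsad2, in 17 of the 22 with Slfn4 and in 19 of the 26 with Irf7. Median depth was similar in the 2 control subsets, at 3422 and 2934 UMIs per cell. Cx3cr1, the fractalkine receptor, had a UMI in 3 iAdFASNKO and 11 control members.

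**Figure D3:**
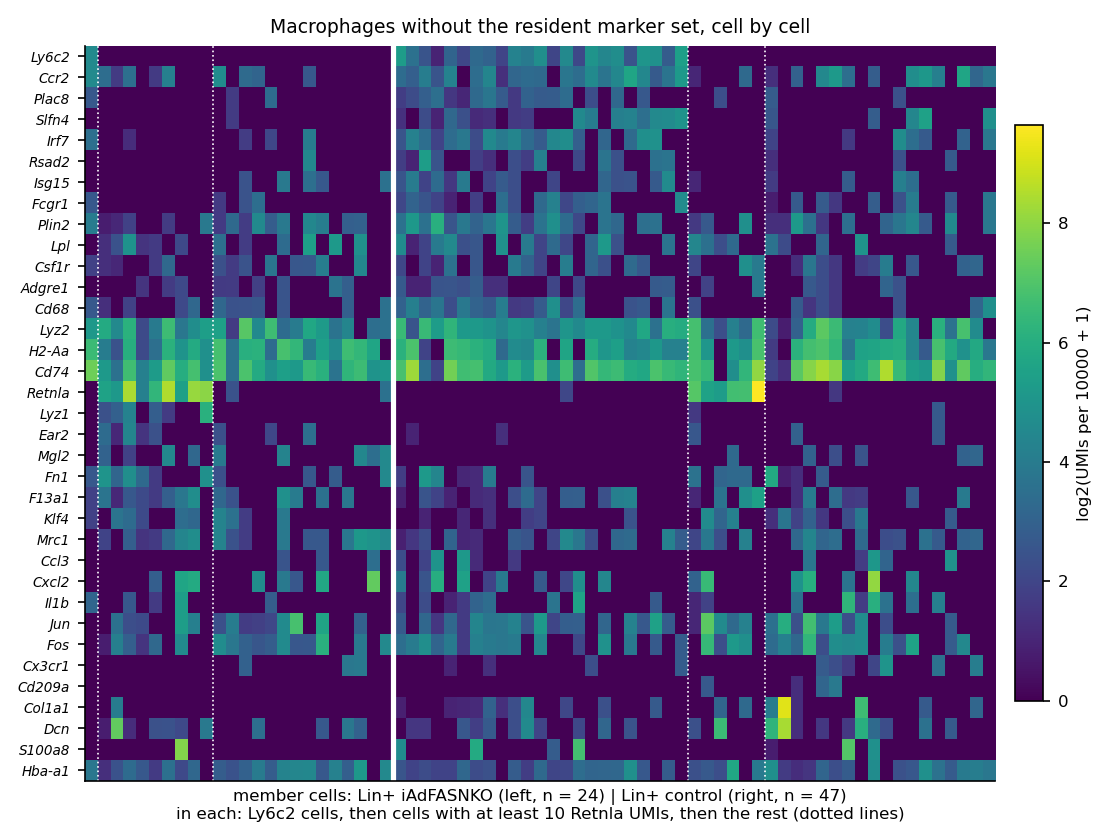
Heat map of log2(UMIs per 10000 + 1) for selected genes (rows) in each member cell (columns), 24 iAdFASNKO cells on the left and 47 control cells on the right; dotted lines divide cells with a Ly6c2 UMI, cells with at least 10 Retnla UMIs and the rest. The Ly6c2 block holds 1 iAdFASNKO and 23 control cells and the Retnla block 9 and 6, and the interferon genes fill the control Ly6c2 block most densely.

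The interferon list as a whole summed to 2240 CPM in iAdFASNKO members (1941 to 2572) and 6289 CPM in control members (5964 to 6627). Among the 23 iAdFASNKO cells without Ly6c2 it stood at 2118 CPM (1822 to 2449). The 23 control cells with Ly6c2 stood at 8947 CPM (8431 to 9487). The 24 control cells without Ly6c2 stood at 2883 CPM (2557 to 3240), above the iAdFASNKO cells without it. Of the list's UMIs in cells without Ly6c2, 60 of 182 iAdFASNKO and 63 of 282 control UMIs were in 1 cell, and without these 2 cells the levels were 1452 CPM (1206 to 1734) and 2610 CPM (2276 to 2979). Resident cells stood at 2186 CPM in the iAdFASNKO and 3553 CPM in the control library. The median member carried 3 genes of the list in the iAdFASNKO and 10 in the control library, the control cells with Ly6c2 17 and those without it 5.

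With the cells that held Ly6c2 left out of both libraries, 84 of 1325 measured genes were higher (6.34%) and 230 lower (17.4%), with a median log2 ratio of -0.19. Of 9 interferon genes still measured, 1 was lower, Slfn4, and 1 higher, Cxcl10, and the list median was -0.34. Of 6 monocyte genes 3 were lower and 1 was higher, with a median of -0.42. Fewer genes are measured in the smaller set, which alone removes some calls, and the summed list remained lower in iAdFASNKO cells without Ly6c2, as given above. With the cells loaded with stromal or neutrophil transcripts left out instead, 70 of 1574 measured genes were higher (4.45%) and 295 lower (18.7%). The median log2 ratio of all genes was then -0.32. In this set 14 of 19 interferon genes and 9 of 11 monocyte genes were lower, with medians of -1.82 each. In that set Ccr2 was among the lower monocyte genes, and Fn1 and Lyz1 were higher.

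Lipid-associated macrophage genes were lower as well. Of 14 measured genes 9 were lower and 0 higher, with a median log2 ratio of -1.01, and in resident cells 7 of 17 were lower, with a median of -0.42. Plin2, the coat protein of lipid droplets (mm10 chr4:86648386-86670060, minus strand), had 41 UMIs or 457 CPM in iAdFASNKO members and 281 UMIs or 1260 CPM in control members, a ratio of 0.363 (0.255 to 0.505). It was found in 16 of 24 and 34 of 47 cells, with at most 9 and 70 UMIs in a cell, so that the groups overlapped. The shares of cells were similar, and the difference lay in the UMIs of the cells that had the gene. Control cells with Ly6c2 held 217 of the 281 control UMIs and stood at 1732 CPM. Cells without Ly6c2 stood at 654 CPM in the control and 407 CPM in the iAdFASNKO library. The part of the mix of cells in the difference was not tested. Lgals3, the lectin galectin-3 of activated macrophages (mm10 chr14:47367751-47386160, plus strand), had 435 and 1986 CPM, a ratio of 0.219 (0.154 to 0.304), in 11 and 35 cells, with at most 11 and 100 UMIs in a cell.

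Among lysosomal genes of the list, Ctsl, cathepsin L, had 7 UMIs in iAdFASNKO and 108 in control members, a ratio of 0.161; Cd63, a protein of late endosomes, had 10 and 92, a ratio of 0.27. Ctsb, cathepsin B, had 2262 and 3613 CPM, a ratio of 0.626 (0.534 to 0.731), and Lamp1 a ratio of 0.591. Nceh1, which splits stored cholesterol esters, was lower too, with 2 and 21 UMIs. The fatty acid binding genes were concentrated in few cells. Fabp5 had 0 UMIs in iAdFASNKO and 102 in control members, 69 of them in 1 cell, at least 13.7-fold lower, and 49 of the 54 control UMIs of Fabp4 were in 1 cell, without which its log2 ratio was 0.58. Lpl, lipoprotein lipase, was not called: it had 635 CPM in iAdFASNKO and 852 CPM in control members, a ratio of 0.746 (0.545 to 1.01). Some defining genes of lipid-associated macrophages were too low to be measured: Trem2 had 4 UMIs in iAdFASNKO and 11 in control members, Cd9 had 1 and 9, and Spp1 had 0 and 13. Without the cells that held Ly6c2 the list had 3 genes lower, Plin2, Ctsl and Cd63, and 3 higher, Gpnmb, Ctsd and Ctsb, of 11 measured, with a median of 0.00, so the call of Ctsb turned.

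Of the lipid and cholesterol handling genes, 2 of 11 were lower, with a median log2 ratio of 0.03. They were Abcg1, a cholesterol exporter, with 4 UMIs in iAdFASNKO and 34 in control members and a ratio of 0.292, and Npc2, which carries cholesterol out of lysosomes, with 345 and 1121 CPM and a ratio of 0.308.

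Inflammatory genes were lower in iAdFASNKO members, with 11 of 16 measured genes of the classical activation list lower, 0 higher and a median log2 ratio of -1.38; in resident cells 6 of 17 were lower and 1 was higher, with a median of 0.15. Ccl4, a chemokine that attracts lymphocytes and monocytes (mm10 chr11:83662584-83664683, plus strand), had 245 CPM in iAdFASNKO and 1318 CPM in control members, a ratio of 0.186 (0.115 to 0.287), in 7 and 17 cells, with at most 8 and 155 UMIs in a cell. Ccl3, its neighbour of like function, had 33.4 and 453 CPM, a ratio of 0.0738 (0.015 to 0.222), in 3 and 11 cells. Cxcl2, a neutrophil attractant, had 724 and 1600 CPM, a ratio of 0.453 (0.342 to 0.591), in 8 and 17 cells, but its log2 ratio was 0.08 when each cell was scaled to the same total before averaging. These chemokines were in a minority of the cells of both libraries.

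Il1b, the precursor of interleukin 1β, had 245 and 551 CPM in iAdFASNKO and control members, a ratio of 0.445 (0.269 to 0.704), and Tnf had 5 and 41 UMIs, a ratio of 0.303. Ccl2 and Ccl7, which attract monocytes, had ratios of 0.191 and 0.198, but all 9 iAdFASNKO and 71 of 117 control UMIs of Ccl2, and 76 of 113 control UMIs of Ccl7, were in 1 cell. Ccl5, Cxcl16, Ptgs2 and Clec4e were also lower. Feedback regulators of NF-κB were not called, with ratios of 1.08 for Nfkbia, 1.39 for Nfkbiz and 1.02 for Tnfaip3. Unlike the interferon list, the inflammatory list was in sum as high in control cells without Ly6c2, at 8027 CPM, as in those with it, at 7790 CPM. It stood at 3783 CPM in iAdFASNKO members without Ly6c2. Of the 785 list UMIs in control cells without Ly6c2, 262 were in the 6 cells with at least 10 Retnla UMIs. The median cell without Ly6c2 carried 4 genes of the list in the iAdFASNKO and 3.5 in the control library. The control cells with Ly6c2 had a median of 6, and all members a median of 4 in both libraries. With the Ly6c2 cells left out, 7 of 12 measured genes stayed lower (Tnf, Il1b, Ccl2, Ccl3, Ccl4, Ccl7 and Cxcl2), with a median of -1.27. Without the cells loaded with stromal or neutrophil transcripts, 5 of 12 were lower (Ccl2, Ccl3, Ccl4, Ccl7 and Cxcl2), with a median of -0.70. Of all genes measured in that set 18.7% were lower, with a median of -0.32. Il1b and Tnf were not called there.

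The ferritin genes were among the most abundant of the lower genes. Fth1, the heavy chain of the iron store ferritin (mm10 chr19:9980598-9985098, plus strand), had 2886 CPM in iAdFASNKO and 9902 CPM in control members, a ratio of 0.292 (0.255 to 0.332), in 17 of 24 and 42 of 47 cells, with at most 123 and 537 UMIs in a cell. Ftl1, the light chain (mm10 chr7:45457944-45459884, minus strand), had 2797 and 8185 CPM, a ratio of 0.342 (0.298 to 0.39), in 22 and 47 cells. Hmox1, which breaks down haem, had 123 and 300 CPM and a ratio of 0.408 (0.195 to 0.778). These were the 3 lower genes of 5 measured in the iron list, whose median was -1.32; in resident cells Fth1 had a ratio of 0.861 and Ftl1 of 1.15, and 3 of 12 genes of the list were higher. Without the Ly6c2 cells Fth1 was the 1 lower gene of 4 measured.

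Of 15 core macrophage genes 7 were lower and 0 higher, with a median log2 ratio of -0.77, against 2 lower of 14 and a median of -0.06 in resident cells. Fcgr1 (mm10 chr3:96282909-96293969, minus strand) had 100 CPM in iAdFASNKO and 314 CPM in control members, a ratio of 0.32 (0.14 to 0.642). Cd68, a lysosomal membrane protein, had 234 and 551 CPM, a ratio of 0.424, and the adaptors Tyrobp and Fcer1g, which couple immune receptors to signalling, had ratios of 0.475 and 0.586. Apoe, the lipid carrier made by macrophages, had 2329 and 4303 CPM, a ratio of 0.541, and Aif1 and Ms4a7 had ratios of 0.389 and 0.38. Csf1r and Lyz2 were not called. Csf1r had 290 CPM in iAdFASNKO and 327 CPM in control members, a ratio of 0.886 (0.543 to 1.4), and Lyz2 had 4291 and 4142 CPM, a ratio of 1.04 (0.917 to 1.17). Adgre1 was not called either, with a ratio of 0.552 (0.248 to 1.11). Without the Ly6c2 cells 1 of 14 core genes was lower and 1 higher, with a median of -0.06.

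Phagocytic and lysosomal genes had 6 of 18 lower, Ctsz, Ctsh, Ctsa, Lgmn, Fcgr4 and Fcgr1, and 1 higher, with a median log2 ratio of -0.52. Ctsz, a lysosomal peptidase, had 18 UMIs in iAdFASNKO and 187 in control members, a ratio of 0.239, and Fcgr4, an activating IgG receptor, had 3 and 48, a ratio of 0.155. The higher gene was the scavenger receptor Marco, with 35 UMIs in iAdFASNKO and 0 in control members, at least 29-fold higher, but all 35 were in 1 cell. Of 9 complement genes beside C1q, C3, Cfb and C3ar1 were lower, with ratios of 0.189 for C3 and 0.191 for C3ar1, and Cfp, the stabiliser properdin, was higher at 401 and 251 CPM, a ratio of 1.6 (1.02 to 2.47). Oxidative phosphorylation genes had 4 of 16 lower, Uqcrq, Cox5a, Cox6b1 and Atp5b, with a median of -0.86, and glycolysis genes had Gapdh, Eno1 and Pkm lower of 11, with a median of -0.34 that was 0.15 when each cell was scaled to the same total.

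Genes that were higher in iAdFASNKO members were fewer. Lyz1, Acox3, Mgl2, Ear2 and Retnla had the 5 highest ratios among the genes named by size. Retnla, a secreted resistin-like protein and marker of alternative activation (mm10 chr16:48842551-48844461, plus strand), had 635 UMIs or 7077 CPM in iAdFASNKO and 240 UMIs or 1076 CPM in control members, a ratio of 6.58 (5.66 to 7.66). The 11 iAdFASNKO cells with Retnla held 259, 164, 65, 38, 34, 31, 18, 13, 10, 2 and 1 UMIs, and the 8 control cells 132, 55, 17, 12, 12, 10, 1 and 1. The ranges overlapped, and the groups differed in the share of cells, 45.8% (25.6 to 67.2%) against 17.0% (7.65 to 30.8%), as well as in the level of the top cells. Without the top cell of each library the ratio was 8.66, and with each cell scaled to the same total the log2 ratio was 1.22 in place of 2.72. B cells had Retnla in 8.54% of iAdFASNKO and 2.49% of control cells, far below the members' shares. The order of the libraries was thus the same in B cells, and whether those UMIs were free RNA was not tested. In thinned cells Retnla remained in 8 of 19 iAdFASNKO and 4 of 41 control members.

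Mgl2, a galactose-binding lectin of alternatively activated macrophages and dendritic cells (mm10 chr11:70130329-70137550, plus strand), had 446 CPM in iAdFASNKO and 49.3 CPM in control members, a ratio of 9.04 (4.55 to 19.5). Its 9 iAdFASNKO cells held 10, 10, 7, 4, 3, 2, 2, 1 and 1 UMIs and its 6 control cells 4, 2, 2, 1, 1 and 1, so that the 3 highest values were from iAdFASNKO cells. Lyz1, a lysozyme close in sequence to Lyz2 (mm10 chr10:117287797-117292868, minus strand), had 35 UMIs in iAdFASNKO and 3 in control members, a ratio of 29 (9.14 to 147). Its cells held 14, 6, 6, 5, 3 and 1 UMIs in the iAdFASNKO and 2 and 1 in the control library. Ear2, an eosinophil-associated ribonuclease also made by monocytes and macrophages (mm10 chr14:44102654-44103534, plus strand), had 412 and 58.3 CPM, a ratio of 7.08 (3.68 to 14.5), in 8 and 5 cells; its copies Ear1, Ear6 and Ear10 had 0 UMIs. Reads of Lyz1 and Lyz2, and of the Ear genes, may be assigned to the wrong copy.

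**Figure D4:**
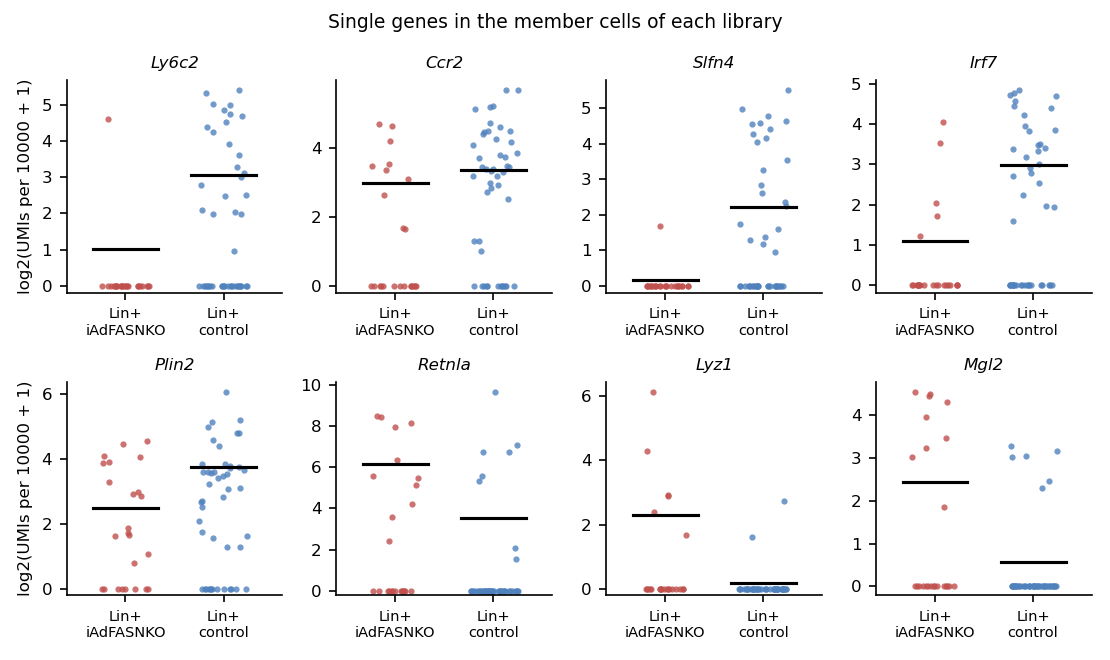
UMIs per 10000 + 1 (y axis, log2 scale) of 8 genes in each member cell, iAdFASNKO left and control right in each panel, with a line at the level of the pooled cells. Ly6c2, Slfn4 and Irf7 points above the floor are mostly control cells, those of Lyz1 and Mgl2 mostly iAdFASNKO cells, and Plin2 and Ccr2 overlap broadly.

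Cells with much Retnla did not hold Ly6c2. At least 10 Retnla UMIs were found in 9 of 24 iAdFASNKO and 6 of 47 control members, and 0 of these had a Ly6c2 UMI; with any Retnla UMI counted, 0 iAdFASNKO and 1 control member had both, and the iAdFASNKO library had only 1 Ly6c2 cell to compare. Of the 9 iAdFASNKO cells, 6 had Lyz1, 6 Fn1, 5 Ear2, 5 Ccr2, 4 Mgl2 and 7 the mannose receptor gene Mrc1, while 0 had Rsad2, Slfn4, Fcgr1 or Plac8. Of the 6 control cells, 1 had Lyz1, 4 Fn1, 1 Ear2, 2 Ccr2 and 1 Mgl2. The 9 iAdFASNKO cells had a median of 4720 UMIs and 5 C1q UMIs per cell, against 19 C1q UMIs in the control cells with Ly6c2. The remaining members, with neither transcript, were 14 iAdFASNKO and 18 control cells.

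Not all genes of alternative activation were higher. Of 10 measured genes Retnla, Mgl2 and Klf4 were higher, Egr2 and Ccl24 lower, and the median log2 ratio was 0.11. Klf4, a transcription factor of monocyte differentiation and alternative activation, had 479 CPM in iAdFASNKO and 242 CPM in control members, a ratio of 1.98 (1.29 to 3.01), but a log2 ratio of -0.01 without the Ly6c2 cells. Ccl24, an eosinophil attractant, had 2 and 27 UMIs, a ratio of 0.184, and 19 of the 21 control UMIs of Egr2 were in 1 cell. Mrc1 and Clec10a were not called, with ratios of 1.45 (1.01 to 2.05) and 0.888. In sum the list stood at 9473 CPM in iAdFASNKO and 2891 CPM in control members, of which Retnla made up 7077 and 1076 CPM.

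The start region of Retnla is shown because STAT6 acts through TTCNNNNGAA elements. It is the stretch of the 250 bases before the RefSeq start (GRCm38.p6, plus strand) that lies outside the annotated gene, 192 bases, with the match in capitals.
Retnla, chr16:48842359-48842550, plus strand: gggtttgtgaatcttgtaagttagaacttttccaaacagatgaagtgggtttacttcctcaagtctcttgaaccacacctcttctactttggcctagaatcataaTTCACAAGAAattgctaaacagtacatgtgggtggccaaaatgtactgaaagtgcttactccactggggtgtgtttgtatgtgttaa
The 1 match begins 145 bases before the RefSeq start. The same letters, which read alike on both strands, were found in 4 of 13 alternative activation genes with a RefSeq promoter (30.8%: Ccl17, Clec7a, Pdcd1lg2 and Retnla), in 5 of 24 interferon-list genes and in 1826 of all 27025 genes (6.76%). Mgl2 and Klf4, which were also higher, are not among those with a match.

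Of 14 measured resident genes that the rule did not use, 5 were higher and 0 lower in iAdFASNKO members, against 5.29% higher and 15.1% lower of all measured genes, with a median log2 ratio of -0.02. F13a1, the coagulation factor XIII A chain of resident and monocyte-derived cells, had 613 CPM in iAdFASNKO and 273 CPM in control members, a ratio of 2.24 (1.53 to 3.28), in 15 and 25 cells. Stab1, a scavenger receptor, had a ratio of 2.18, Fcrls, an Fc receptor-like gene, a ratio of 4.56 (2.16 to 10.1), and Gas6, a bridge to dying cells, one of 2.34 with 24 of its 31 iAdFASNKO UMIs in 1 cell. Mgl2 is the fifth and is also counted under alternative activation. MHC class II genes did not move as a list, with 1 of 7 lower and a median of 0.02: Cd74, the invariant chain, had 6341 and 9870 CPM, a ratio of 0.642 (0.585 to 0.705), against ratios of 0.852, 1.03 and 0.825 for H2-Aa, H2-Ab1 and H2-Eb1.

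The remaining lists moved little or rested on few cells. Non-classical monocyte genes had Fabp4 and Clec4a3 lower of 4 measured, and growth factors and cytokines had Il1rn lower of 7. Of 19 genes known to rise during tissue dissociation, 6 were lower, Fos, Jun, Egr1, Hspa1a, Hsp90aa1 and Hspa8, with a median log2 ratio of -0.30 that was 0.17 when each cell was scaled to the same total. In resident cells, by contrast, 13 of 20 were higher, with a median of 0.74. Fos had log2 ratios of -0.67 in members and 1.00 in resident cells, and Jun -0.96 and 1.26; the difference between the kinds of cell was not tested. Reads of Hspa1a and Hspa1b are uncertain between the copies. Of 4 proliferation genes Top2a was higher, with 18 and 10 UMIs in 2 cells of each library, and the 1 measured gene of catecholamine handling was not called.

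Beyond the lists, genes were named by the size of their ratio among eligible calls, which were 100 of the 131 higher and 337 of the 375 lower genes. Such calls had UMIs in at least 5 cells of the library where they were higher. Their ratio also stayed past 1.5-fold without each library's top cell, whatever its interval. Mitochondrial, ribosomal protein, haemoglobin, Xist, Tsix, Y-linked and antigen receptor genes and unnamed gene models were left out. Of the 12 highest, those not yet given were Acox3, a peroxisomal oxidase, with 18 UMIs in iAdFASNKO and 3 in control members, a ratio of 14.9 (4.35 to 79.1), in 11 and 3 cells; Zfp950, with a ratio of 5.8; Sept11, with 5.42 and 14 of its 24 iAdFASNKO UMIs in 1 cell; and Plekha2, Psd3, Ano6 and Blnk, each with 14 and 7 UMIs and a ratio of 4.97 (1.88 to 14.6). These rest on few UMIs, and of them only Sept11 had 20 or more in the iAdFASNKO library.

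Of the 12 lowest, Tnfrsf1b, the type 2 receptor of TNF, had 0 UMIs in iAdFASNKO and 33 UMIs in 17 control members, at least 4.42-fold lower. Hivep2, a zinc-finger factor, had 0 UMIs and 25 UMIs in 19 control cells, at least 3.35-fold lower. Socs3, the feedback inhibitor of cytokine signalling, had 0 and 23 UMIs, at least 3.08-fold lower, and Acod1, which makes itaconate in activated macrophages, had 1 and 48, a ratio of 0.0518, in 6 control cells. Others had most of their control UMIs in 1 cell: Ccl5, with 0 UMIs in iAdFASNKO and 56 of 68 control UMIs in 1 cell; Il1rn, with 1 UMI and 55 of 62; Ccdc80, with 1 UMI and 37 of 61; and Col1a1, a stromal collagen, with 14 UMIs and 813 of 908. Itih5 and Spon1, with 0 UMIs in iAdFASNKO and 23 and 30 in control members, were at least 3.08-fold and 4.02-fold lower. Without the top cell of each library Il1rn and Itih5 were no longer called.

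Members were then set against the resident cells of the same library, which the rule separated by 6 genes. The rule used this contrast, so the values are a description. Of 2637 genes measured in both libraries, 49 (1.86%) were higher and 140 (5.31%) lower in members in both, and nothing is read from these shares. Genes higher in members in both libraries were led by Traf1, an adaptor of TNF receptors (mm10 chr2:34941750-34961772, minus strand), with member over resident ratios of 5.12 in the iAdFASNKO and 6.58 in the control library. Ccr2 had 691 CPM in members and 70.5 CPM in resident cells of the iAdFASNKO library, a ratio of 9.8, and 928 and 185 CPM in the control library, a ratio of 5.0. Irf7 had ratios of 2.84 and 5.41, Rgs1, a regulator of chemokine receptors, 2.47 and 7.48, and Cd44, an adhesion receptor, 4.2 and 2.79. Slc15a3, Slc38a1, Basp1, Mpeg1 and Fn1 had ratios between 2.45 and 11.4, and Plk2 and Grk3 complete the 12.

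Genes lower in members in both libraries included 17 further resident genes, such as Pf4, Cbr2, Fcna, Cd209b and Cd209g. Pf4, a chemokine of platelets and resident macrophages (mm10 chr5:90772435-90773383, plus strand), had 234 CPM in members and 2382 CPM in resident cells of the iAdFASNKO library, a ratio of 0.0983, and 255 and 2561 CPM in the control library, a ratio of 0.0998. Cbr2, a carbonyl reductase, had ratios of 0.103 and 0.111 and Ednrb, an endothelin receptor, 0.0508 and 0.12. Fcna was at least 4.8-fold lower in members of the iAdFASNKO library and Cd209g at least 16.2-fold lower in those of the control library, where members had 0 UMIs. In both libraries members had 0 UMIs of Cd209b, at least 2.81-fold and 5.06-fold lower, of Tslp, at least 2.58-fold and 4.81-fold lower, of P2ry12, at least 2.7-fold and 4.18-fold lower, and of Pdgfc, at least 2.93-fold and 3.8-fold lower. Pla2g2d, C6 and Plekhg5 were the remaining genes named as lower.

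By list, 17 of 18 resident genes outside the rule were lower in members in both libraries, with median log2 member over resident ratios of -2.13 in the iAdFASNKO and -2.63 in the control library, against -0.13 and -0.07 over all genes. Alternative activation genes had 5 of 8 lower, with medians of -1.47 and -1.46. Core macrophage genes had 4 of 14 lower, Csf1r with ratios of 0.255 and 0.352, Adgre1, Ms4a7 and Apoe. Monocyte genes had 3 of 9 higher, Ccr2, Fn1 and S100a4, with medians of 0.50 and 0.89. Interferon genes had 1 of 12 higher, Irf7, with medians of -0.04 and 0.47, and MHC class II genes had 0 of 7 called. Lpl, with ratios of 2.16 and 1.63, and Lgals3, with 1.95 and 3.65, were the lipid-associated genes higher in members, while Cd36 and Ctsl were lower. Retnla had ratios of 1.44 and 0.177, so members and resident cells were ordered oppositely in the libraries.

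**Figure D5:**
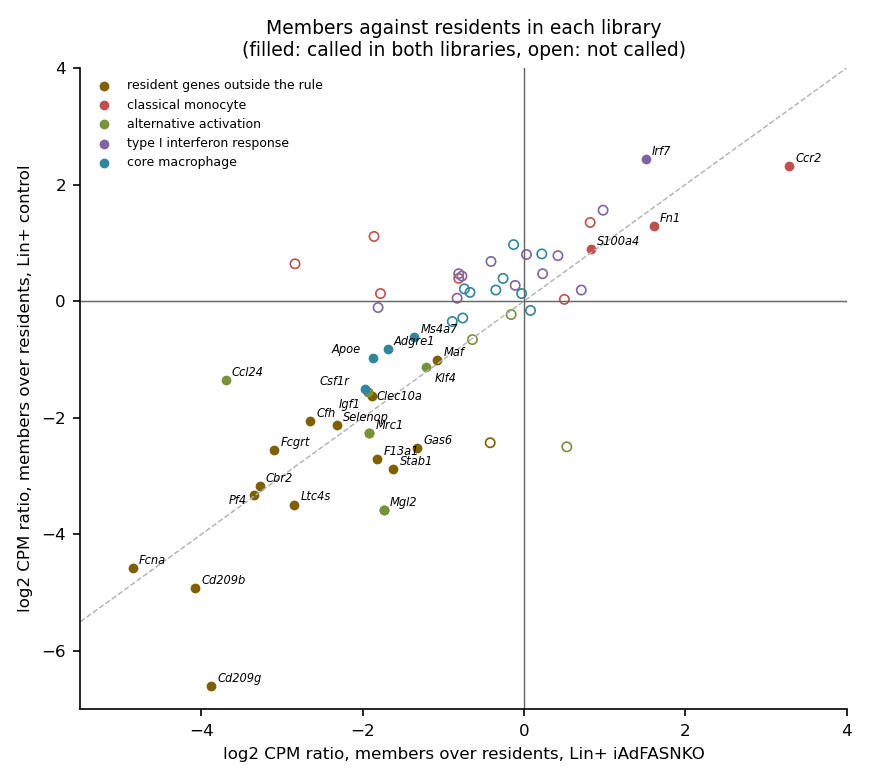
Log2 ratio of CPM in members over resident cells in the iAdFASNKO library (x axis) and the control library (y axis). Points are genes measured in both from the core macrophage, further resident, interferon, classical monocyte and alternative activation lists. Filled points were called in the same direction in both libraries. Ccr2 lies in the upper right and Pf4 and Cbr2 in the lower left, while Retnla lies right of 0 and below 0.

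Resident cells of the same libraries differed by genotype too, and are given beside the members for the same genes. Of 5606 genes measured there 186 (3.32%) were higher and 408 (7.28%) lower in iAdFASNKO cells, with a median log2 ratio of -0.13; more genes were measured than in members because these cells held more UMIs, 255247 and 587622. Interferon genes were also lower in resident cells, 14 of 26 with 1 higher and a median of -0.91, with ratios of 0.343 (0.131 to 0.763) for Rsad2, 0.307 (0.141 to 0.596) for Irf7 and 0.41 for Isg15. Plin2 had a ratio of 0.777 and Lgals3 of 0.41. Ccr2 had a ratio of 0.38 (0.217 to 0.629), against 0.745 in members. Mgl2 was higher in resident cells as in members, with a ratio of 2.53 (2.18 to 2.93), and Klf4 too, with 2.09, while Retnla had a ratio of 0.805 (0.755 to 0.859) in resident cells against 6.58 in members. Resident cells and members come from the same 2 libraries, so these comparisons are not independent, and their differences were not tested.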

How the data were processed

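Single-cell RNA of 4 libraries (Lin+ and Lin- cells of iAdFASNKO and control mice, 1 pooled library each) was analysed. The deposited values are UMI counts per gene and barcode. The matrices' headers name software version 3.0.2 and the submitters' processing notes list Cell Ranger 3.1.0, Seurat 3.0 and mm10; any further filter by the authors is not given in the sources used here. Barcodes ending in -1 are Lin+ and in -2 Lin-, per the labels, and the genotype of a matrix comes from KO or WT in its file name.

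Counts of member cells were summed per library over 31053 features and given as CPM of the summed total, with exact Poisson intervals for levels, exact conditional binomial intervals for ratios, exact Clopper-Pearson intervals for shares and Katz intervals for ratios of shares. All are 95% intervals of counting error only, and no test between genotypes was possible with 1 library per group. A count of 0 was set to 0.5 for log2 ratios and plots; no list median between genotypes in members rests on such a gene. Folds against 0 use a floor of 3 UMIs per library. Genes were named from the 12 largest ratios in each direction, and from the lists. Between genotypes, ranked calls had a UMI in at least 5 cells of the library where they were higher. They also stayed past 1.5-fold without each library's top cell. Against resident cells, calls were ranked by the weaker ratio of both libraries. Mitochondrial, ribosomal protein, haemoglobin, Xist, Tsix, Y-linked and antigen receptor genes and unnamed gene models were left out of the ranking. The members and the 19 gene lists were chosen with earlier results of these data known. Gene positions are from GENCODE M21 (mm10), start regions from RefSeq. Doublets were called with Scrublet in scanpy 1.11.5 at an assumed rate of 0.06 and left in. Python 3.11.15, numpy 2.4.6, scipy 1.17.1 and pandas 2.3.3 were used, and the scripts were tested on simulated data. Alternatives changed the cell filter, the C1q and resident thresholds, depth, other-class cells, scaling and the UMI minimum. Leaving out the stromal or neutrophil loaded cells, leaving out the Ly6c2 cells, and leaving out the top interferon cell among cells without Ly6c2, were chosen after seeing the data. Some genes of the lists are counted in them but are not reported here.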

Additional observations from a re-analysis of the deposited data

Results flagged for a closer look

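These genes differed in opposite directions by genotype in members and in resident cells, with each of the 2 intervals clear of no change; the difference between members and resident cells was not tested. The log2 iAdFASNKO over control ratio of Plac8 was -2.29 in members and 0.68 in resident cells, and that of Hmox1 -1.29 and 0.75. For genes that rise during tissue dissociation it was -0.67 and 1.00 for Fos, -0.96 and 1.26 for Jun, -0.65 and 0.96 for Egr1, and -0.60 and 0.73 for Hspa1a. The proliferation gene Top2a had log2 ratios of 2.16 in members and -5.63 in resident cells. In members it had 18 UMIs in iAdFASNKO and 10 in control cells, 14 and 8 of them in 1 cell; iAdFASNKO resident cells had 0 UMIs against 57 in control ones, at least 8.25-fold lower.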

How the results depend on the processing

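The share of members was lower in the iAdFASNKO library, with an interval clear of 1, under every other choice of cells tried except 3. The ratio of 0.332 was 0.578 without cells that held at least 2 markers of another class (8 and 9 members left). It was 0.598 without any cell that held a B or T marker (12 and 20 members left), and 1.04 among C1q cells, where it turned. Under the stricter cell filter it was 0.063 and under the looser one 0.487. The number of higher genes, 131, was 13 under the stricter filter, 82 with no resident gene allowed, 28 without other-class cells, 50 after thinning, 70 without stromal or neutrophil loaded cells, 84 without Ly6c2 cells, 232 with centring, 52 with at least 50 UMIs, 338 with no minimum and 76 without each gene's top cell. The number of lower genes, 375, was 146 under the stricter filter, 174 with at least 10 C1q UMIs, 56 without other-class cells, 72 after thinning, 230 without Ly6c2 cells, 221 with centring and 238 with at least 50 UMIs; fewer genes were measured in the smaller sets. The interferon median kept its sign under all settings run, between -2.81 and -0.34. The lipid-associated median was -2.32 under the stricter filter, -2.42 without other-class cells, -0.14 after thinning and 0.00 without Ly6c2 cells, and the monocyte median -2.29 under the stricter filter and -0.42 without Ly6c2 cells. Genes higher in members than resident cells, 49, were 4 under the stricter filter, 29 with 2 resident genes allowed, 10 without other-class cells and 13 after thinning; those lower, 140, were 33, 30 and 37 under the stricter filter, without other-class cells and after thinning. Of single genes, Rtp4 turned to 0.09 on the log2 scale under the stricter filter, Thbs1 to 1.24 with at least 10 C1q UMIs, Ctsb to 0.76 and Klf4 to -0.01 without Ly6c2 cells, Cxcl2 to 0.08 with scaled cells, and Fabp4 to 0.58 without its top cell. Causes beyond the number of cells and genes left were not tested. Other values for single genes fell short of the threshold in 113 cases and moved in 20, and 874 stayed on their side. With 24 and 47 cells, counting error and single cells limit most genes, and variation between mice could not be seen. No paired analysis was possible because each genotype was 1 pooled library.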
